A study of Homo sapiens with 12 samples.

Results

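The adenosine deaminases acting on RNA (ADARs) are a family of 3 human genes, ADAR, ADARB1 and ADARB2, and their mRNAs were followed through an RNA immunoprecipitation (IP) directed at the protein of the third, ADAR3. They were identified by the Ensembl IDs ENSG00000160710 (ADAR), ENSG00000197381 (ADARB1) and ENSG00000185736 (ADARB2), and all 3 were found among the 31707 genes listed in the deposited tables. The cells were U373-MG, a human glioblastoma line that expresses ADAR3 from its own gene according to the design text, with no transgene or treatment named in the labels. They were crosslinked with ultraviolet light, lysed and sonicated before IP. The molecule is labelled polyA RNA while the library protocol describes depletion of rRNA, so whether the gene counts hold reads of unspliced RNA beside mRNA is not settled by the labels. The 12 libraries form 3 groups of 4: IP of ADAR3 (ADAR3 IP), the control IP labelled PreImmune (PreImmune IP), and the RNA taken as input. Nothing in the labels ties replicates to separate cultures, so the tests measure the spread between libraries, which may be technical.

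ADAR enzymes turn adenosine into inosine within double-stranded RNA, and inosine is read as guanosine by the ribosome and by reverse transcriptase. ADAR encodes ADAR1, made as a constitutive short form and an interferon-induced long form, and edits mostly repeat-derived duplexes in untranslated regions and introns. ADARB1 encodes ADAR2, which edits the transcript of the glutamate receptor subunit GRIA2 and also a site in an intron of its own pre-mRNA. ADARB2 encodes ADAR3, found mainly in brain, which binds double-stranded RNA and, through an arginine-rich region, single-stranded RNA, but has no known deaminase activity. ADAR3 is described as a competitor of the active enzymes for their substrates.

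RefSeq places ADAR at chr1:154582057-154627997 on the minus strand, ADARB1 at chr21:45074578-45226563 on the plus strand and ADARB2 at chr10:1177313-1737525 on the minus strand (GRCh38.p14). ADARB2 spans 560213 bases and its locus holds the antisense gene ADARB2-AS1, at chr10:1526630-1557008 on the plus strand. The ADARB2 locus also holds the lncRNA genes LOC105376342, on the plus strand, and LOC124902364, whose strand is not given. A lncRNA gene on the plus strand, LOC124904427 at chr1:154627956-154632396, overlaps the start of ADAR. The library kit kept the strand, but the sources used here do not say whether the counting used it. Antisense reads in these overlaps therefore cannot be told apart from those of ADARB2 or, where the overlap is short, of ADAR. The counts are per gene and do not separate the long and short forms of ADAR1.

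Levels are given in CPM, the count of reads of a gene relative to all reads assigned to genes in the same library, scaled to a common total of 1000000. ADAR3 IP libraries held 23999234 to 30156884 such reads, PreImmune IP libraries 1875461 to 4946149 and input libraries 4873428 to 12772412. The groups also differed in the spread between replicates, with a median SD of log2(CPM + 0.5) over 15212 genes of 0.25 in ADAR3 IP, 1.05 in PreImmune IP and 0.13 in input. CPM is a share of a library, so a level says nothing of the amount of RNA recovered. Genes that take many reads also lower the CPM of all others. The 13 genes described below as rich in both IPs held 132741 to 217468 CPM in PreImmune IP. They held 52579 to 61794 CPM in ADAR3 IP and 99.0 to 199 CPM in input. CPM is not scaled to transcript length either, so the genes are compared with each other only as ratios that are set side by side between groups.

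ADARB1 mRNA made up more of the ADAR3 IP than of either control in all 4 libraries. It stood at 183, 191, 205 and 155 CPM in ADAR3 IP replicates 1 to 4, against 104, 97.3, 115 and 102 CPM in PreImmune IP. Input held 97.3, 93.4, 96.2 and 81.9 CPM. The lowest ADAR3 IP library, replicate 4, lay above the highest library of the other groups, whereas PreImmune IP and input overlapped in CPM. The means were 183 ± 20.9 CPM in ADAR3 IP, 105 ± 7.25 CPM in PreImmune IP and 92.2 ± 7.08 CPM in input (SD, n = 4 each).

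**Figure D1:**
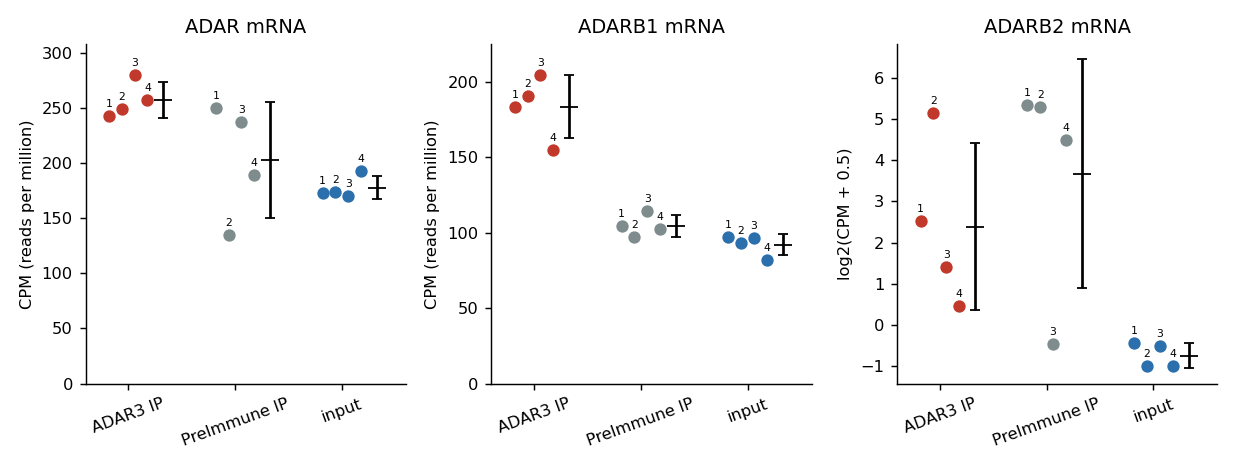
Levels of the 3 mRNAs in each library. Points are libraries with their replicate number, bars are the mean ± SD of 4 libraries, and the y axes are CPM for ADAR and ADARB1 and log2(CPM + 0.5) for ADARB2; all ADARB1 points of ADAR3 IP lie above both controls, at 155 CPM or more, while ADARB2 points of both IPs scatter over most of the axis.

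Against input, ADARB1 was higher in ADAR3 IP by 0.98 ± 0.087 on the log2 scale (SE), a 1.98-fold difference (limma on log2(CPM + 0.5), 12 libraries, Benjamini-Hochberg adjusted p = 1.1e-10 over 15212 genes). Of all genes tested, 27.3% were called higher in this comparison. The fold change of ADARB1 exceeded those of 93.1% of genes, and the median over all genes was 0.015.

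Against PreImmune IP, the difference in ADARB1 was 0.72 ± 0.28 on the log2 scale (SE), a 1.65-fold difference, and did not pass the threshold of 0.05 (limma on log2(deposited value + 1), variance weights per group, adjusted p = 0.187 over 15182 genes). In this comparison 0.837% of genes were called higher, and the median log2 fold change over all genes was 0.37. The fold change of ADARB1 exceeded those of 61.1% of genes. The weights treat the PreImmune libraries as more variable for every gene alike. The SD of ADARB1 among them was 0.098 on the log2 scale, and 0.508% of 11416 genes with a mean of at least 5 CPM there had a smaller one. Those genes were not matched to the level of ADARB1, 105 CPM, and an SD of 4 libraries is itself imprecise. With 1 variance per gene and no group weights, the same difference had an adjusted p of 0.0186 (limma), and 4.34% of 15182 genes were called higher. On whole reads recovered from the deposited values, the quasi-likelihood test of edgeR gave a log2 fold change of 0.82 with an adjusted p of 0.0126, and 6.9% of 14470 genes were called higher. The authors' deposited table lists ADARB1 at a log2 fold change of 0.73 ± 0.12 (SE) with an adjusted p of 6.297e-08, and 8.75% of the 17946 genes with an adjusted p there were higher.

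When the comparison was limited to the 4569 genes with a mean of at least 50 CPM, a choice made after seeing the data, ADARB1 passed against PreImmune IP (limma adjusted p = 0.0371), as did 8.16% of these genes in the same direction. All ADAR3 IP libraries lay above all PreImmune IP libraries for 11.9% of 15182 genes, above all PreImmune IP and input libraries for 7.06% of 14825 genes, and above all PreImmune IP and input libraries for 12.8% of the genes of at least 50 CPM. ADARB1 is among them in each case. An exact permutation test over libraries gave a two-sided p of 0.0286 for ADAR3 IP against each control, the smallest that 4 against 4 can give. After adjustment over the 9 comparisons of 3 mRNAs and 3 pairs of groups, no exact p was under 0.05 (lowest adjusted p = 0.0643).

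Between PreImmune IP and input, the log2 difference of ADARB1 was 0.18 ± 0.32 (SE; limma adjusted p = 0.78), which leaves room for changes of either sign. It was 0.18 with TMM factors and 0.31 with DESeq2 (adjusted p = 0.0237). DESeq2 called 4233 genes in either direction, of 31707 given to it. Any gene that it left without an adjusted p is counted in the 31707, so the share called among genes tested may be larger. The part of the 13 IP-rich genes in the difference of ADARB1 was not tested. In the limma fit the fold change of ADARB1 exceeded those of 76.7% of genes, and the median over all genes was -0.44. Called higher were 0.171% of genes, and 2.3% were called lower. The balance depended on the method, since 6.91% of all calls were higher here, 20.9% with edgeR and 41.6% with DESeq2.

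ADAR mRNA was also more abundant in ADAR3 IP than in input, and its ADAR3 IP and PreImmune IP levels overlapped. ADAR3 IP replicates 1 to 4 held 243, 249, 280 and 258 CPM, against 250, 135, 237 and 189 CPM in PreImmune IP. Input held 173, 174, 170 and 193 CPM. The ADAR3 IP libraries all lay above the input libraries, while PreImmune IP replicate 1 lay within the range of ADAR3 IP and replicate 2 below all input libraries. The means were 257 ± 16.3 CPM in ADAR3 IP, 203 ± 52.3 CPM in PreImmune IP and 177 ± 10.5 CPM in input (SD, n = 4 each).

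The log2 difference of ADAR between ADAR3 IP and input was 0.53 ± 0.074 (SE), or 1.45-fold (limma adjusted p = 5.1e-07), larger than for 77.6% of genes. Between ADAR3 IP and PreImmune IP it was 0.30 ± 0.23 (SE; limma adjusted p = 0.511), below the median of all genes of 0.37. The authors' deposited table gives 0.26 ± 0.19 (SE) with an adjusted p of 0.425 for the same comparison. Between PreImmune IP and input it was 0.15 ± 0.27 (SE, limma adjusted p = 0.783), larger than for 75.4% of genes. The median over all genes was -0.44 there, so the rank of ADAR against input was similar in both IPs. Higher in all ADAR3 IP than in all input libraries were 24.6% of genes.

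**Figure D2:**
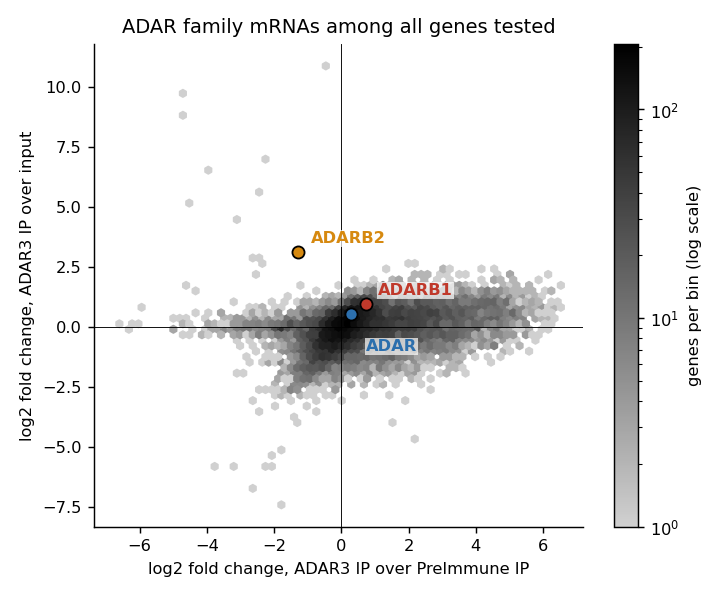
Log2 fold changes of ADAR3 IP over PreImmune IP (x axis) and over input (y axis) for all genes tested in both fits, shaded by the number of genes per bin, with the 3 mRNAs marked. ADAR (0.30 and 0.53) and ADARB1 (0.72 and 0.98) lie within the dense cloud, and ADARB2 (-1.28 and 3.12) lies above it.

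The ratio of ADARB1 to ADAR reads within a library does not depend on how libraries are scaled. It was 75.6, 76.6, 73.1 and 60.2 ADARB1 reads per 100 ADAR reads in ADAR3 IP replicates 1 to 4, against 41.8, 72.1, 48.3 and 54.1 in PreImmune IP. In input it was 56.2, 53.8, 56.6 and 42.4. All ADAR3 IP libraries lay above all input libraries, and PreImmune IP replicate 2 fell within the ADAR3 IP range, where its ADAR level was the lowest of all libraries.

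Against input, the ratio in ADAR3 IP was higher by 0.45 on the log2 scale, or 1.37-fold (exact permutation test, two-sided, p = 0.0286, adjusted p = 0.0857 over 6 ratio comparisons). Against PreImmune IP the ratio differed by 0.42 (exact permutation p = 0.0571, adjusted p = 0.114). Neither passed after adjustment, and in these designs p cannot go below 0.0286. PreImmune IP and input differed by 0.03 (exact permutation p = 0.971).

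**Figure D3:**
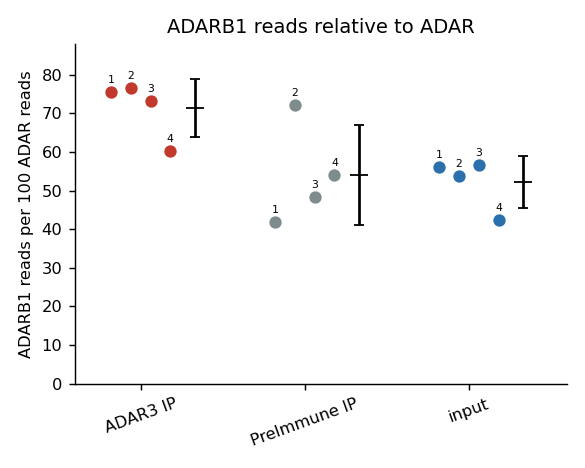
ADARB1 reads per 100 ADAR reads in each library, by group. Points are libraries with their replicate number and bars are the mean ± SD of 4; ADAR3 IP averaged 71.4 ± 7.59, PreImmune IP 54.1 ± 13.1 and input 52.2 ± 6.66.

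ADARB2, whose protein was the target of the antibody, was almost without reads in input and was present at widely differing levels in the libraries of both IPs. ADAR3 IP replicates 1 to 4 held 153, 1044, 59 and 21 ADARB2 reads, against 198, 108, 1 and 41 reads in PreImmune IP. Input held 3, 0, 1 and 0 reads. In CPM these are 5.28, 34.6, 2.17 and 0.875 in ADAR3 IP, 40.0, 38.6, 0.228 and 21.9 in PreImmune IP, and 0.235, 0, 0.205 and 0 in input. The antibody and the PreImmune libraries overlapped over nearly their whole range, and the highest level was in PreImmune IP replicate 1.

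Pooled over 37477547 input reads, the 4 ADARB2 reads correspond to 0.107 CPM. The expression of ADAR3 stated in the design text thus left little trace in input RNA, and protein was not measured here. In the input libraries with no ADARB2 read, a count of 0 allows up to 0.296 CPM in replicate 2 and 0.309 CPM in replicate 4 (3 reads over the library total). The lowest IP value, the 1 read of PreImmune IP replicate 3, has a 95% exact binomial interval of 0.00577 to 1.27 CPM and is not distinguishable from input at this depth. The 21 reads of ADAR3 IP replicate 4 give 0.542 to 1.34 CPM, and the 1044 reads of replicate 2 give 32.6 to 36.8 CPM. These intervals do not meet, so counting error does not cover the difference between these ADAR3 IP libraries. The intervals cover counting error alone, and amplified reads without molecular identifiers are not independent molecules.

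ADARB2 did not differ between ADAR3 IP and PreImmune IP beyond its spread. The log2 difference was -1.28 ± 2.26 (SE; limma adjusted p = 0.788), so a sizeable change in either direction is within its error. The authors' deposited table lists -1.33 ± 1.30 (SE) with an adjusted p of 0.587. With 1 library left out, the difference ranged between -2.95 (without PreImmune IP replicate 3) and -0.55 (without ADAR3 IP replicate 4).

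Relative to input, the ratio of pooled ADARB2 reads, each divided by its group's library total, was 108 for ADAR3 IP, with a 95% exact interval of 42.2 to 398, and 233 for PreImmune IP, with an interval of 90.1 to 859. Both rest on 4 input reads, and the intervals cover counting error alone, not the spread between libraries. ADAR3 IP replicate 2 holds 1044 of the 1277 pooled ADAR3 IP reads, and without it the ratio for ADAR3 IP was 27.2. With 1 PreImmune IP library left out, a choice made after seeing the data as well, the ratio for PreImmune IP ranged between 155 (without replicate 1) and 338 (without replicate 3). On the log2(CPM + 0.5) scale, which shrinks such differences, ADAR3 IP exceeded input by 3.12 ± 0.48 (SE; limma adjusted p = 2.45e-06). The size of this difference depends on the pseudocount, with 1.65 at 5 times and 5.25 at 0.1 times the pseudocount, and was 6.59 with edgeR and 6.74 with DESeq2. That call was lost with no group weights (limma adjusted p = 0.139). PreImmune IP exceeded input by 4.40 ± 1.77 (SE; limma adjusted p = 0.158), and this passed with no group weights (limma adjusted p = 0.0287). That fit called 2795 of 15212 genes, 18.3% of them higher. ADARB2 met the minimum mean of 1 CPM through the IP libraries alone, so a difference from input was built into its being tested, and the calls add no support to it.

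**Figure D4:**
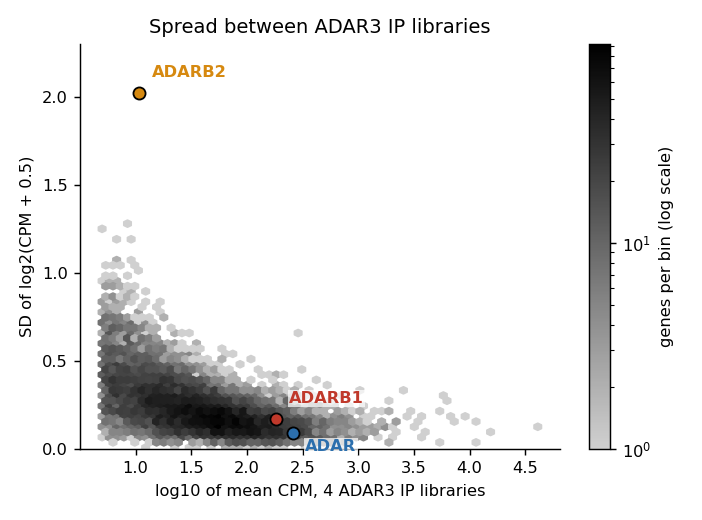
SD of log2(CPM + 0.5) over the 4 ADAR3 IP libraries (y axis) against log10 of their mean CPM (x axis) for 11283 genes with a mean of at least 5 CPM, shaded by the number of genes per bin. ADARB2, at an SD of 2.02, lies above every other gene shown. ADAR is at 0.090 and ADARB1 at 0.17.

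Within ADAR3 IP, ADARB2 varied 39.6-fold between libraries, compared with 1.15-fold for ADAR and 1.32-fold for ADARB1. Its SD on the log2(CPM + 0.5) scale was 2.02, the largest of the 11283 genes with a mean of at least 5 CPM in this group, where the next largest was 1.28 and the median 0.21. ADARB2 met this minimum, at a mean of 10.7 CPM, through replicate 2 at 34.6 CPM. Its other ADAR3 IP libraries were at 0.875 to 5.28 CPM. Genes with a lower mean were not ranked, so the rank of ADARB2 depends in part on this minimum. Of the 3766 genes within a factor of 2 of the mean level of ADARB2, 0 had a larger SD. In PreImmune IP the SD of ADARB2 was 2.78, and 91.96% of 11416 genes with a mean of at least 5 CPM there had a smaller one. These comparisons were made after the values were seen and describe the libraries without a test.

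In ADAR3 IP the order of the ADARB2 levels was the order of depth, with 30156884, 28973790, 27241268 and 23999234 reads in replicates 2, 1, 3 and 4. In PreImmune IP it was not, since replicate 3, with 4391041 reads, had 1 ADARB2 read and the shallowest library, replicate 4, had 41. The part of depth in the ADARB2 levels was not tested.

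ADARB2 is among 14 genes called IP-rich here, by a rule of at least 5 CPM in the geometric mean of the IP groups and less than 1/20 of it in input. The rule was taken from earlier results of these data. It does not ask for a high level in both IPs, and a gene can pass mainly through PreImmune IP. The other 13 together held 52579 to 61794 CPM in ADAR3 IP, 132741 to 217468 CPM in PreImmune IP and 99.0 to 199 CPM in input. Few of the 13 made up most of these sums. In ADAR3 IP 1 gene held 36591 to 43649 CPM and another 13483 to 15876 CPM. In PreImmune IP the same genes held 42172 to 58132 CPM and 50753 to 77459 CPM, and a further gene 34077 to 93591 CPM. Gene by gene, 12 of the 13 had reads in all ADAR3 IP libraries and varied by a median of 1.60-fold and at most 4.20-fold, against 39.6-fold for ADARB2. The gene at 4.20-fold stood at 0.725 to 3.05 CPM in ADAR3 IP and 12.1 to 74.4 CPM in PreImmune IP. The remaining gene of the 13 had no read in ADAR3 IP replicate 1, 0.0332 CPM in replicate 2 and 2.42 CPM in replicate 3, the highest. It varied at least 23.4-fold (3 reads as the floor of replicate 1). Whether it varied more than ADARB2 cannot be told at these counts. Among PreImmune IP libraries the 13 genes varied by a median of 2.31-fold and at most 11.4-fold, against 176-fold for ADARB2, whose lowest value rests on 1 read. The library with the lowest ADARB2 level had the lowest sum of the others in PreImmune IP (replicate 3) and the highest in ADAR3 IP (replicate 4). The part of such RNAs in the ADARB2 levels was not tested.

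**Figure D5:**
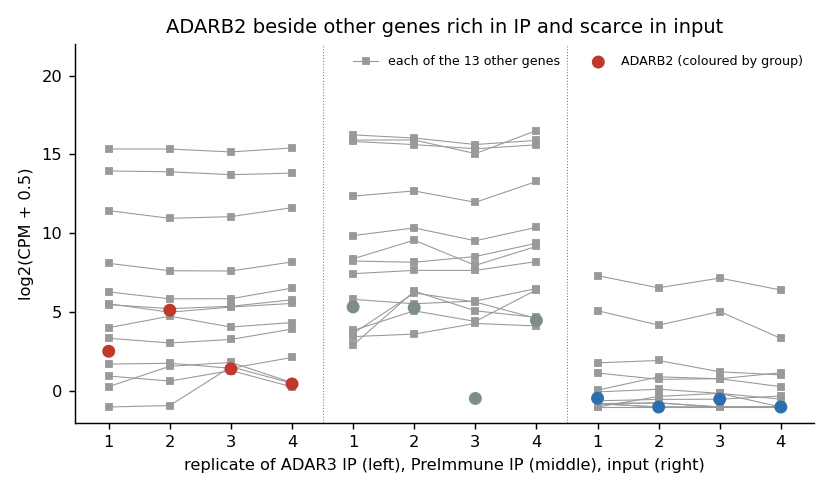
ADARB2 (circles, coloured by group) and each of the 13 other IP-rich genes (grey squares joined within a group), as log2(CPM + 0.5) in each library. Within ADAR3 IP, ADARB2 ranges between 0.875 and 34.6 CPM, and 12 of the 13 others vary at most 4.20-fold.

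Under a stricter rule, an input mean below 0.25 CPM with at least 20 CPM in the highest library of each IP group, 4 genes remained, ADARB2 included. The other 3 were at or above 15.8 CPM in every ADAR3 IP library and at or above 251 CPM in every PreImmune library, and lower in ADAR3 IP than in PreImmune IP in all libraries. ADARB2 thus differed from them in its low values of 0.875 CPM in ADAR3 IP and 0.228 CPM in PreImmune IP and in the overlap of the groups. This rule was also set after the values were seen.

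The genes whose levels ran most alike with each mRNA over the 12 libraries were found by Pearson correlation of log2(CPM + 0.5) among 11275 other genes with a mean of at least 5 CPM. The libraries share a group and a depth range, so these values describe the pattern and carry no test. The highest correlation for ADARB1 was 0.986, with ENSG00000245532, at 7379 to 9670 CPM in ADAR3 IP, 3629 to 4610 CPM in PreImmune IP and 2780 to 3198 CPM in input. For ADARB1, 158 genes correlated above 0.9, compared with 41 for ADAR and 8 for ADARB2. For ADARB2 the highest was 0.942, with ENSG00000102804, whose level moved over a far smaller range, 122 to 146 CPM in ADAR3 IP, 107 to 172 CPM in PreImmune IP and 111 to 117 CPM in input.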

How the data were processed

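RNA IP sequencing of 12 libraries was analysed, grouped and numbered by their titles. The submitters' processing notes name the build GRCh38 and, as tools, DESeq2, featureCounts and STAR 2.7.7a. What each did, and which annotation and strand setting were used, is not given in the sources used here. The authors deposited a normalized signal, read counts per gene scaled by 1 factor for each library, in 1 table for the IP libraries (28556 genes) and another for input (28061 genes). The tables were normalized separately. In both, 100% of values were whole multiples of 1 read within 0.001 reads, so whole reads and library totals were recovered and CPM computed from them. The authors' deposited table also holds log2 fold changes and adjusted p-values of ADAR3 IP over PreImmune IP. Columns of other samples numbered 0.

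ADAR3 IP was compared with PreImmune IP by limma 3.58.1 (R 4.3.3) on log2(deposited value + 1), for genes with a mean of at least 10. Both IPs were compared with input on log2(CPM + 0.5) in 1 fit of 12 libraries, for genes with a mean of at least 1 CPM. Both fits used a variance trend, variance weights per group, and Benjamini-Hochberg adjustment over all genes tested, at 0.05. Fold changes on these scales understate changes of low genes. The fits were tested on simulated data: among genes of at least 50 CPM, as ADAR and ADARB1 are, few false calls were made, but below that level false calls arose for PreImmune IP against input and, in the fit without weights, between the IPs, so the shares of genes called there are rough. edgeR 4.0.16 and DESeq2 1.42.0 were run on recovered reads as alternatives. Libraries that share a number deviated from their group means with correlations of -0.0302 to 0.148, not all over 0.1, so replicate numbers were not taken to pair libraries.

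The members, lists and rules were chosen with earlier results of these data known. The named genes are the 3 family members and, for likeness, the closest gene by correlation, limited to 2 IDs. The reference table of 59792 genes holds 0 Ensembl IDs, so the planned lists of other deaminases, partners and editing substrates and of cell type markers were not analysed here, and the identity of the cells was not checked. The symbols of the 3 members are those given with their IDs. No protein sequences were used here.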

Additional observations from a re-analysis of the deposited data

Results flagged for a closer look

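Of 15 sets of 4 libraries examined (CPM of the 3 mRNAs and 2 read ratios in each group), 3 had a library that stood apart at the 95% level of Dixon's test. For independent sets of normal values, chance marks about 1 set in 20. The values were CPM and ratios not put on a log scale, and sets that share reads are not independent. ADARB2 in ADAR3 IP replicate 2 was at 34.6 CPM, against 0.875 to 5.28 CPM in the other ADAR3 IP libraries. The same library held 13.9 ADARB2 reads per 100 ADAR reads, against 0.340 to 2.18 in the others, a mark that rests on the same ADARB2 reads. ADAR in input replicate 4 was at 193 CPM, against 170 to 174 CPM in the other input libraries. Without input replicate 4, ADAR was higher in ADAR3 IP than in input by 0.58 on the log2 scale (limma adjusted p = 4.67e-08). Without ADAR3 IP replicate 2, ADARB2 was higher in ADAR3 IP than in input by 2.21, in place of 3.12, on the same scale (limma adjusted p = 2.61e-05). This call adds no support to a difference, since ADARB2 met the minimum through the IP libraries alone.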

How the results depend on the processing

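Of 162 pairs of a fitted difference in the 3 mRNAs and a setting, 152 kept their direction and their side of the threshold, 9 gained a call and 1 lost it. With 1 library left out, none of the 15 exact tests had an adjusted p under 0.05, and the lowest was 0.0514. Groups of 4 and 3 libraries allow few splits, so this says little about a difference, and those settings bear mainly on direction. Of 120 differences with 1 library left out, 2 changed sign. The difference of ADARB1 between ADAR3 IP and PreImmune IP passed with no variance weights, no filter and, chosen after seeing the data, a minimum of 50 CPM (0.72 each), with edgeR (0.82) and with DESeq2 (0.73), and not in the other settings run; its adjusted p ranged from 6.297e-08 to 0.365. ADARB2 against input lost its call in ADAR3 IP with no weights (3.12) and gained one in PreImmune IP with no weights (4.40), edgeR (7.80) and DESeq2 (8.06). As stated above, calls on ADARB2 against input add no support to a difference. ADARB1 in PreImmune IP against input gained a call with DESeq2 (0.31). The ratio of ADARB1 to ADAR between PreImmune IP and input, 0.03, changed sign at -0.12 without PreImmune IP replicate 2 and -0.067 without input replicate 4, within a range of -0.12 to 0.14.

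Counts of genes called in either direction shifted with the setting. Between ADAR3 IP and PreImmune IP the 169 genes became 903 with no weights, 64 and 292 at pseudocounts 0.1 and 5 times as large, 1326 with no filter, 1242 with edgeR, 2581 with DESeq2, 286 with library size scaling, 431 with TMM factors, 581 at 50 CPM and 45 to 229 with 1 library left out (45 without PreImmune IP replicate 2, 46 without replicate 1, 50 without replicate 3 and 109 without replicate 4). Between ADAR3 IP and input the 8499 became 2100 with no weights, 2254 with edgeR, 3373 with DESeq2 and 3558 at 50 CPM. Between PreImmune IP and input the 376 became 2795 with no weights, 165 and 590 at the other pseudocounts, 1951 with no filter, 2629 with edgeR, 4233 with DESeq2, 737 at 50 CPM and 69 to 482 with 1 library left out (69 without PreImmune IP replicate 1, 119 without replicate 3, 146 without replicate 2 and 189 without replicate 4). The share of calls that were higher in ADAR3 IP than in PreImmune IP, 75.1%, was 85.8% with TMM factors, 66.5% with the replicate block, 64.2% at 50 CPM, 60.9% with DESeq2 and 63.8% without ADAR3 IP replicate 4. For PreImmune IP against input it was 6.91%, against 18.3% with no weights, 20.9% with edgeR, 41.6% with DESeq2 and 18.8% without PreImmune IP replicate 1. Apart from the filters, which change the genes tested, the cause was not tested.

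With the replicate block the 169 genes became 257, the 8499 became 8448 and the 376 became 532, and no call on the 3 mRNAs changed. For ADARB2, depth limits the comparisons with input, where 4 reads were found in all, while its spread between libraries sets the error of the comparison between the IPs (SE 2.26).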
